A study of Rattus norvegicus with 10 samples.

Results

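Transcripts of 10 glycolysis enzymes were measured by RNA sequencing in cultured rat oligodendrocytes (OLs) and oligodendrocyte progenitor cells (OPCs). The genes were Hk1, Hk2, Gpi, Pfkl, Pfkm, Pfkp, Pgk1, Pkm, Ldha and Ldhb. They were chosen by name, wherever a deposited table of the authors paired one of these symbols with a gene ID. Each symbol matched 1 gene ID, so the group held 10 of the 23487 genes counted. All 10 passed the filter on low counts in each of the 5 comparisons.

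OPCs were shaken off mixed glial cultures made from the cortex of Sprague-Dawley rat pups at postnatal days 1 to 3. Oligonucleotides were delivered at 30 nM with INTERFERin, a dose the study's methods state for the miR-145 mimic, its inhibitor and the scrambled controls. OLs were lysed 5 days after they received the miR-145 mimic (OL miR-145), the miR-145 and miR-219 mimics together (OL miR-145+miR-219) or a scrambled mimic (OL miR-ctl), in medium that held thyroid hormone, CNTF and N-acetyl cysteine. OPCs were lysed 24 h after they received an inhibitor of miR-145-5p (OPC anti-miR-145) or a scrambled inhibitor (OPC anti-miR-ctl), in medium that held FGF2 and PDGFAA. Each of the 5 groups had 2 libraries, whose totals ran from 33505706 to 42684206 estimated counts. The study's general statement on replication, worded for mice, counts primary cultures from separate animals as replicates, and the sample labels do not say from which culture each library came. The titles of the OL miR-145 libraries name miR-145 alone whereas their treatment tag also names miR-219, and the titles were followed. The study's methods on sequencing name lentiviral transduction, but its results and the sample labels name mimics, which were followed.

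The mature rat miRNAs are printed from RefSeq (GRCr8) because they are the agents that separate the groups, with the seed (bases 2 to 8) in capitals. The labels give no arm for miR-219, and the entry for miR-219a-5p is shown. The 2 seeds differ.
rno-miR-145-5p: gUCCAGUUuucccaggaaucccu
rno-miR-219a-5p: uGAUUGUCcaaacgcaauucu

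Glycolysis turns glucose into pyruvate in the cytosol with a net gain of ATP, and lactate dehydrogenase interconverts pyruvate and lactate. Most steps can be carried by several isoenzymes, encoded by separate genes, that differ in tissue distribution and regulation. In the central nervous system, OLs are known to pass lactate to the axons they ensheathe, and astrocytes are known for a high glycolytic rate.

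Levels are given as scaled counts (CPM) after TMM normalization over the 10 libraries. No transcript length entered them, so each of the 10 genes was compared with its own levels only. Where a marker is called the most abundant of its list, this refers to CPM without regard to length. The lowest count behind any of these values was 653, for Hk2 in replicate 2 of OL miR-ctl. Together the 10 genes took 0.234% and 0.204% of the counts in the OL miR-ctl libraries, 0.358% and 0.272% in OL miR-145, and 0.309% and 0.216% in OL miR-145+miR-219. Their share was 0.258% and 0.260% in OPC anti-miR-ctl and 0.289% and 0.267% in OPC anti-miR-145. The share was lowest in replicate 2 of OL miR-ctl and highest in replicate 1 of OL miR-145.

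Marker lists were summed in each library to describe the cells that these levels come from. All 9 genes of the OL list were matched. They summed to 17606 and 32429 CPM in OL miR-ctl, 16139.9 and 25761 in OL miR-145, and 20108 and 35351 in OL miR-145+miR-219, with Mbp the most abundant. In OPC anti-miR-ctl they summed to 1256 and 1322 CPM and in OPC anti-miR-145 to 1111 and 1103, with Cnp the most abundant and Enpp6 under 1 CPM. The 5 matched genes of the OPC list summed to between 1131 and 1809 CPM in the OL libraries and between 3533 and 4551 in the OPC libraries. Both lists thus separated the libraries by their labelled cell type. All 7 genes of the astrocyte list were matched, and they summed to 5820 and 4982 CPM in OL miR-ctl, 12018 and 8250.4 in OL miR-145, and 9959 and 5914 in OL miR-145+miR-219. Gfap was the most abundant in the OL libraries, at 4179 to 9708 CPM, and Gjb6 was under 1 CPM. In the OPC libraries the astrocyte list summed to between 218 and 443 CPM, mostly from Slc1a3, and Aqp4, Aldh1l1 and Gjb6 were under 1 CPM. The 10 microglia genes summed to between 378 and 1013 CPM in the OL libraries and between 875 and 1105 in the OPC libraries, and the 5 matched neuron genes to between 75.4 and 139 CPM in all 10. Fibroblast or mural genes reached at most 24.3 CPM and endothelial genes at most 11.5. In bulk samples such as these, fewer cells of a type and less RNA per cell cannot be told apart.

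**Figure D1:**
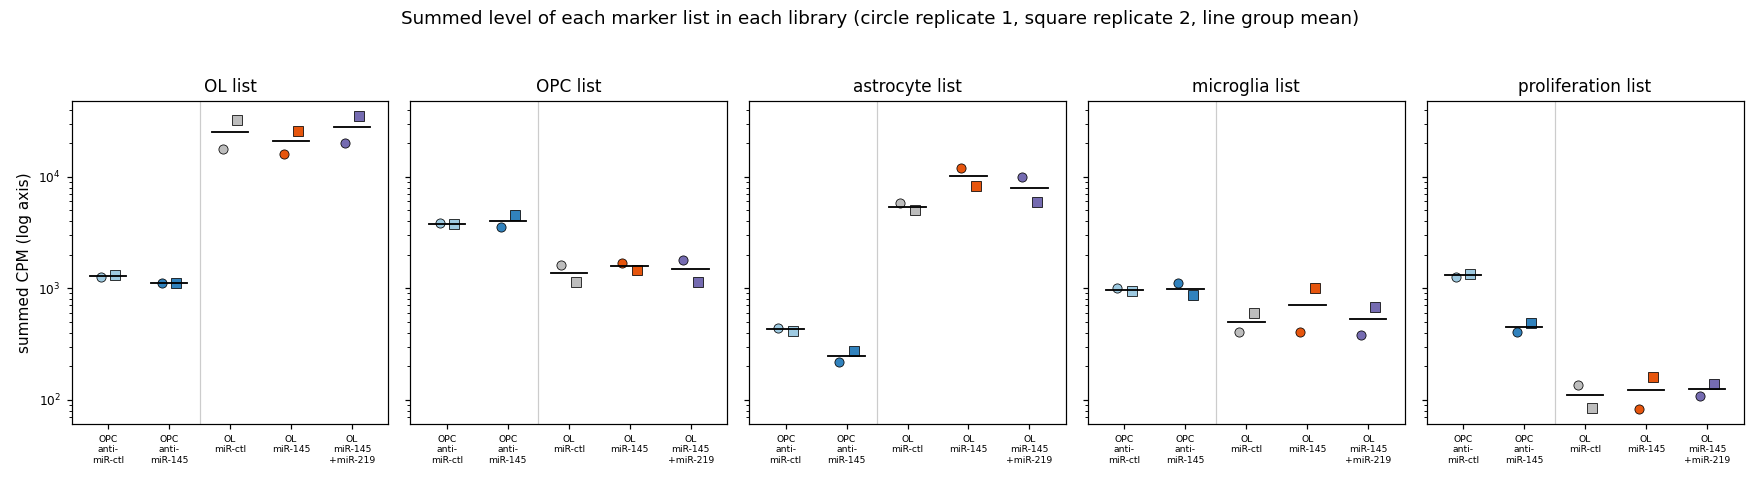
Summed CPM (log axis) of 5 marker lists in each of the 10 libraries, by group, with a line at the group mean. The OL and astrocyte lists are higher in all 6 OL libraries than in all 4 OPC libraries, and the proliferation list is lower in OPC anti-miR-145 (404 and 491 CPM) than in OPC anti-miR-ctl (1267 and 1352 CPM).

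Replicates of the OL groups stood apart from each other in most of these genes. Replicate 1 was above replicate 2 for 9 of the 10 genes in OL miR-145+miR-219, for 9 in OL miR-145 and for 8 in OL miR-ctl, with median ratios of 1.41, 1.31 and 1.22. Hk2 was lower in replicate 1 in all 3 OL groups, as was Pgk1 in OL miR-ctl, and Hk2 had ratios of replicate 1 to replicate 2 of 0.846, 0.691 and 0.877 in the same order. In the OPC groups the median ratios were 1.08 for anti-miR-145 and 0.993 for anti-miR-ctl. Hk1, Gpi, Pfkm, Pfkp and Pkm ranked the 6 OL libraries identically, from replicate 1 of OL miR-145, replicate 1 of OL miR-145+miR-219 and replicate 2 of OL miR-145 down to replicate 1 of OL miR-ctl, replicate 2 of OL miR-145+miR-219 and replicate 2 of OL miR-ctl. Ldhb ranked them as Gfap and the summed astrocyte list did, and this order differed from the preceding one only in that replicate 2 of OL miR-145+miR-219 stood above replicate 1 of OL miR-ctl. The summed OL list was lowest in replicate 1 of OL miR-145, where 8 of the 10 genes, all but Hk2 and Pfkl, were highest among the OL libraries. The part of other cells in these levels was not tested.

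**Figure D2:**
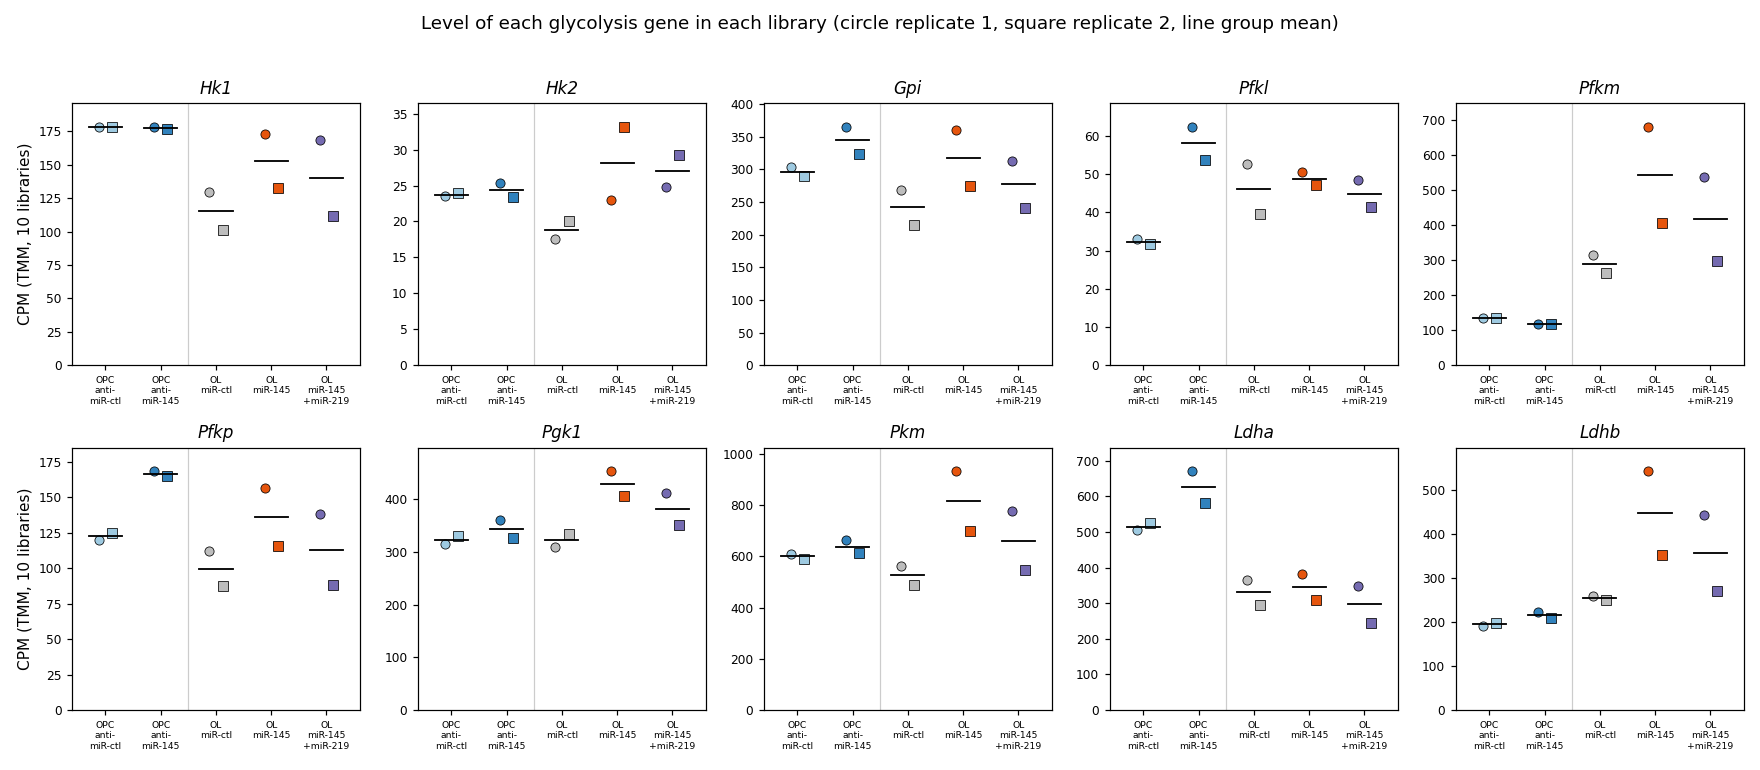
Level of each of the 10 genes in CPM (linear axes from 0, 1 panel per gene) in each library, by group, with circles for replicate 1, squares for replicate 2 and a line at the group mean. Pfkm and Ldhb are higher, and Hk1 and Ldha lower, in all 6 OL libraries than in all 4 OPC libraries.

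Hexokinases phosphorylate glucose and so keep it in the cell. Hk1 (ENSRNOG00000046891), the broadly expressed form of brain that binds mitochondria, was at 129 and 101 CPM in the OL miR-ctl libraries, 173 and 133 in OL miR-145, and 168 and 112 in OL miR-145+miR-219. It was at 179 and 178 CPM in OPC anti-miR-ctl and at 178 and 176 in OPC anti-miR-145. The 4 OPC libraries were nearly level, and all 6 OL libraries were below them. Hk2 (ENSRNOG00000006116), an inducible form that also binds mitochondria, was at 17.6 and 20.1 CPM in OL miR-ctl, 22.9 and 33.2 in OL miR-145, and 24.7 and 29.2 in OL miR-145+miR-219. It was at 23.6 and 23.9 CPM in OPC anti-miR-ctl and 25.3 and 23.4 in OPC anti-miR-145. The OL miR-ctl libraries were the lowest for Hk2, both OL groups given mimics were above them, and each of the other 4 groups overlapped with its neighbours in rank.

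The ratio of Hk2 to Hk1 counts within a library needs neither scaling nor gene length to be compared between libraries. The log2 ratio was -2.88 and -2.33 in OL miR-ctl, -2.92 and -2.00 in OL miR-145, and -2.77 and -1.93 in OL miR-145+miR-219. It was -2.92 and -2.90 in OPC anti-miR-ctl and -2.81 and -2.91 in OPC anti-miR-145. In each OL group replicate 1 lay close to the OPC libraries and replicate 2 lay above them. Over 6 OL and 4 OPC libraries the mean was higher by 0.42 in OLs, which did not pass (two-sided exact permutation test p = 0.0762, adjusted p = 0.0762 over the 4 ratios tested). Without replicate 1 of OL miR-145 the difference was 0.50 and passed, with an exact adjusted p of 0.0317.

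Gpi (ENSRNOG00000023150) interconverts glucose 6-phosphate and fructose 6-phosphate, the branch point toward the pentose phosphate pathway. It was at 268 and 215 CPM in OL miR-ctl, 361 and 274 in OL miR-145, and 313 and 242 in OL miR-145+miR-219. It was at 303 and 289 CPM in OPC anti-miR-ctl and at 366 and 324 in OPC anti-miR-145. Both OL miR-ctl libraries were below all 4 OPC libraries, but replicate 1 of OL miR-145 reached the range of OPC anti-miR-145. The order of the group means ran from OPC anti-miR-145 through OL miR-145, OPC anti-miR-ctl and OL miR-145+miR-219 to OL miR-ctl, and all 4 neighbouring pairs in this order overlapped.

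Phosphofructokinases make fructose 1,6-bisphosphate, the committing step of the pathway, as tetramers of the liver (Pfkl), muscle (Pfkm) and platelet (Pfkp) type subunits. Pfkl (ENSRNOG00000001214) was at 52.7 and 39.6 CPM in OL miR-ctl, 50.6 and 47.1 in OL miR-145, and 48.5 and 41.3 in OL miR-145+miR-219. It was at 33.0 and 31.8 CPM in OPC anti-miR-ctl and at 62.5 and 53.7 in OPC anti-miR-145. The OPC groups bracketed the OL libraries, since both anti-miR-ctl libraries were below every other library and both anti-miR-145 libraries were above every other one. Pfkm (ENSRNOG00000057988) was at 315 and 264 CPM in OL miR-ctl, 682 and 407 in OL miR-145, and 538 and 298 in OL miR-145+miR-219. It was at 134 and 135 CPM in OPC anti-miR-ctl and at 117 in both libraries of OPC anti-miR-145. All 6 OL libraries were above all 4 OPC libraries, and no other gene of the group differed as widely among the OL libraries, with a ratio of highest to lowest of 2.58. Pfkp (ENSRNOG00000017163) was at 112 and 87.1 CPM in OL miR-ctl, 156 and 116 in OL miR-145, and 138 and 88.0 in OL miR-145+miR-219. It was at 119.9 and 125 CPM in OPC anti-miR-ctl and at 168 and 165 in OPC anti-miR-145. The OPC anti-miR-145 libraries were the highest for Pfkp, and the OL groups overlapped with each other or with OPC anti-miR-ctl.

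The balance of the 3 subunits differed between the cell types. The log2 ratio of Pfkp to Pfkm counts was -1.49 and -1.60 in OL miR-ctl, -2.13 and -1.81 in OL miR-145, and -1.96 and -1.76 in OL miR-145+miR-219. It was -0.17 and -0.11 in OPC anti-miR-ctl and 0.53 and 0.50 in OPC anti-miR-145. The cell types did not overlap, the anti-miR-145 libraries were above the anti-miR-ctl libraries, and the OL libraries given mimics were below those of OL miR-ctl. The difference of OL minus OPC was -1.98 (mean -1.79, SD 0.23, n = 6 against 0.19, SD 0.38, n = 4, exact permutation test p = 0.00952, adjusted p = 0.0127). The log2 ratio of Pfkl to Pfkm was -2.58 and -2.74 in OL miR-ctl, -3.75 and -3.11 in OL miR-145, and -3.47 and -2.85 in OL miR-145+miR-219. It was -2.03 and -2.08 in OPC anti-miR-ctl and -0.90 and -1.12 in OPC anti-miR-145. Again the OL libraries were all below the OPC libraries, and the anti-miR-145 libraries stood highest. The difference of OL minus OPC was -1.55 (mean -3.08, SD 0.45, n = 6 against -1.53, SD 0.61, n = 4, exact permutation test p = 0.00952, adjusted p = 0.0127). A p of 0.00952 is the smallest that 6 against 4 libraries can give. All 4 ratio tests took the libraries of a cell type as exchangeable replicates and ignored that they fall into treatment groups of 2.

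In the control libraries alone the differences were smaller. With OL miR-ctl against OPC anti-miR-ctl, the Pfkp to Pfkm ratio differed by -1.41 and the Pfkl to Pfkm ratio by -0.60, and with 2 against 2 libraries an exact p cannot go below 0.333. Cell type, medium, time after transfection and the kind of control oligonucleotide all change between OL and OPC libraries and cannot be told apart.

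**Figure D3:**
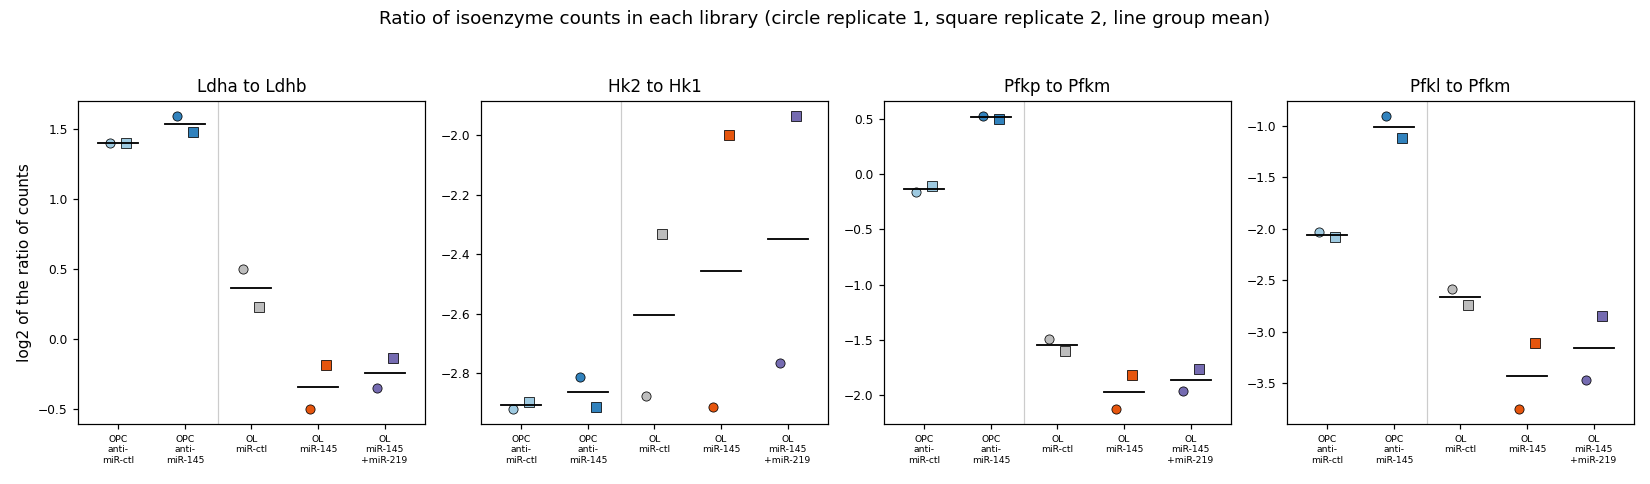
log2 ratio of counts of 4 isoenzyme pairs within each library, by group, with circles for replicate 1, squares for replicate 2 and a line at the group mean. The Ldha to Ldhb, Pfkp to Pfkm and Pfkl to Pfkm ratios are lower in all 6 OL libraries than in all 4 OPC libraries, and the Hk2 to Hk1 ratio overlaps.

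Pgk1 (ENSRNOG00000058249) transfers a phosphate from 1,3-bisphosphoglycerate to ADP and is the X-linked form used by most tissues. It was at 310.0 and 335 CPM in OL miR-ctl, 453 and 406 in OL miR-145, and 413 and 351 in OL miR-145+miR-219. It was at 315 and 330.2 CPM in OPC anti-miR-ctl and at 360.5 and 327 in OPC anti-miR-145. The OL miR-ctl libraries lay around the OPC anti-miR-ctl libraries, and both OL groups given mimics were above the OL miR-ctl libraries.

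Pkm (ENSRNOG00000011329) makes pyruvate and ATP from phosphoenolpyruvate, and its counts here join the alternatively spliced M1 and M2 forms. It was at 563 and 489.6 CPM in OL miR-ctl, 932 and 699 in OL miR-145, and 776 and 548 in OL miR-145+miR-219. It was at 610.3 and 591 CPM in OPC anti-miR-ctl and at 664 and 613 in OPC anti-miR-145. The OL libraries spanned the OPC libraries, with both OL miR-ctl libraries below them and both OL miR-145 libraries above them.

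Lactate dehydrogenase is a tetramer of A and B subunits, and the A type is known to favour lactate formation and the B type pyruvate formation. Ldha (ENSRNOG00000013009) was at 366 and 294 CPM in OL miR-ctl, 382 and 309.5 in OL miR-145, and 348 and 246 in OL miR-145+miR-219. It was at 506 and 525 CPM in OPC anti-miR-ctl and at 671 and 583 in OPC anti-miR-145. All 6 OL libraries were below all 4 OPC libraries, the 3 OL groups overlapped, and both anti-miR-145 libraries were above both anti-miR-ctl libraries. Ldhb (ENSRNOG00000013000) was at 259 and 251 CPM in OL miR-ctl, 542 and 352 in OL miR-145, and 444 and 269 in OL miR-145+miR-219. It was at 192 and 198 CPM in OPC anti-miR-ctl and at 222 and 209 in OPC anti-miR-145. Here the OL libraries were all above the OPC libraries, and the libraries given mimics were all above those of OL miR-ctl.

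The log2 ratio of Ldha to Ldhb counts was 0.50 and 0.23 in OL miR-ctl, -0.50 and -0.19 in OL miR-145, and -0.35 and -0.13 in OL miR-145+miR-219. It was 1.40 in both libraries of OPC anti-miR-ctl, and 1.60 and 1.48 in OPC anti-miR-145. The 4 OPC libraries were above the OL miR-ctl libraries, and these were above the 4 OL libraries given mimics. The difference of OL minus OPC was -1.54 (mean -0.07, SD 0.37, n = 6 against 1.47, SD 0.09, n = 4, exact permutation test p = 0.00952, adjusted p = 0.0127). In the control libraries alone it was -1.04, with 2 against 2 libraries and so no p under 0.333. Across the ways of leaving out 1 library it ran from -1.66 to -1.46.

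The comparison of OL miR-ctl with OPC anti-miR-ctl asks how the control cultures of the 2 stages differ, with the limits on medium, time and oligonucleotide given above. In OLs, Pfkm rose by 1.10 on the log2 scale (SE 0.11, edgeR adjusted p = 0.000824), Pfkl by 0.51 (SE 0.15, adjusted p = 0.0338) and Ldhb by 0.38 (SE 0.08, adjusted p = 0.00932). In edgeR, Ldha (-0.65, SE 0.12, adjusted p = 0.00844), Hk1 (-0.63, SE 0.13, adjusted p = 0.0106) and Hk2 (-0.34, SE 0.11, adjusted p = 0.0454) fell. The remaining genes did not pass, at log2 fold changes of -0.30 for Gpi, -0.30 for Pfkp, -0.20 for Pkm and -0.00 for Pgk1. So 6 of the 10 genes passed, where 57.5% of the 15721 genes tested did (4531 higher and 4511 lower). The libraries of the 2 groups did not overlap for 9 of the 10 genes, where this held for 81.7% of all genes tested. The median log2 fold change was -0.25 over the 10 genes and 0.01 over all genes tested. Without replicate 1 or without replicate 2 of OPC anti-miR-ctl only Pfkm still passed, and the number of genes passing fell from 9042 to 5071 and 5016. The log2 fold changes of the other 5 genes then ranged from -0.68 to -0.62 for Ldha, -0.64 to -0.63 for Hk1, -0.36 to -0.33 for Hk2, 0.49 to 0.53 for Pfkl and 0.35 to 0.41 for Ldhb. Without replicate 1 of OL miR-ctl, Gpi was at -0.46, Pfkp at -0.49, Pkm at -0.30 and Pfkl at 0.29. Without replicate 2 of OL miR-ctl, Gpi was at -0.15, Pfkp at -0.13 and Pkm at -0.10. Hk2 also missed the threshold in DESeq2 (-0.34, adjusted p = 0.0688). In a single fit of all 10 libraries Hk2 (-0.32) and Ldhb (0.40) missed it. The counts of that fit, among the 10 and over all genes, are given with the settings below. Several marker lists moved with these differences, beside the OL and OPC lists. The astrocyte list was at 5820 and 4982 CPM against 443 and 413, and the proliferation list at 137 and 84.2 against 1267 and 1352. The microglia list was at 401 and 596 CPM against 1009 and 939. Its genes went both ways, such as C1qb (90.2 and 144 against 79.7 and 80.8) and Aif1 (21.3 and 30.9 against 207 and 219). The neuron list was at 130 and 136 CPM against 77.4 and 75.4, a difference carried by Tubb3 (87.1 and 104 against 28.2 and 26.7). Rbfox3 (2.16 and 1.47 against 5.73 and 5.37) and Nefl (1.18 and 1.01 against 3.13 and 3.51) were lower. Syt1 and Nefm overlapped. The endothelial list was at 0.93 and 0.92 CPM against 11.5 and 10.7, and the fibroblast or mural list at 3.64 and 3.59 against 1.15 and 1.23. Flt1 carried the former difference (0.35 and 0.34 against 10.7 and 10.1), and Tek went the other way (0.53 and 0.46 against 0.23 and 0.16). Pdgfrb carried the latter (2.66 and 2.33 against 0.14 and 0.25). The part of these lists in the result was not tested.

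**Figure D4:**
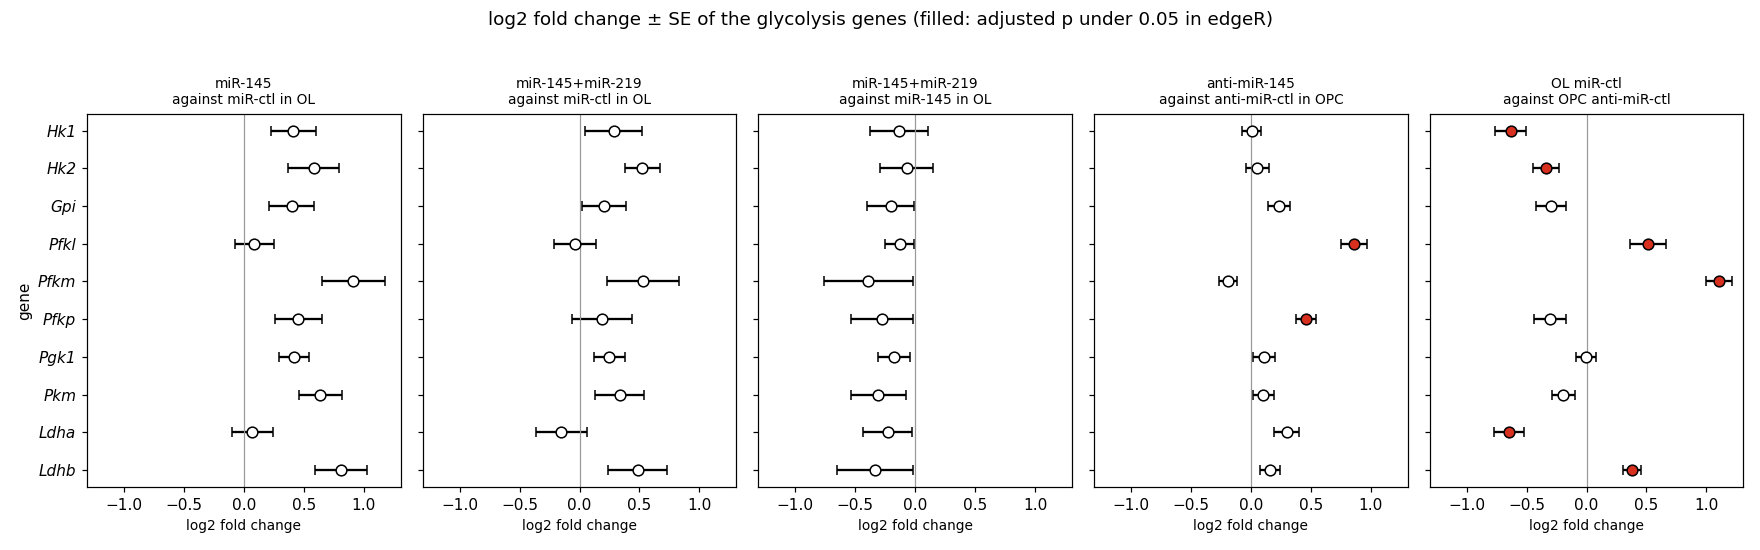
log2 fold change (points) with its standard error (bars) of the 10 genes in each of the 5 comparisons, with filled points for genes that passed an adjusted p of 0.05 in edgeR. The 6 filled points of OL miR-ctl against OPC anti-miR-ctl lie on both sides of 0, and the 2 of anti-miR-145 against anti-miR-ctl are Pfkl and Pfkp.

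Genes of neighbouring pathways were counted in the same comparison, beside 4531 rises and 4511 falls among all 15721 genes tested (57.5% in all). Of the other glycolysis genes, 13 of 20 were matched by symbol, as 14 gene IDs, and 6 rose and 1 fell. Aldoc, an aldolase known from astrocytes, rose by 1.05, and Hk3, a hexokinase of myeloid cells, fell (-1.57). Aldoa (-0.23), Eno1 (-0.14) and the 2 gene IDs that carry the symbol Tpi1 (-0.21 and -0.12), which carry the steps between the 10 genes, did not pass, and Pgam1 rose by 0.26. Of 5 genes that set the level of fructose 2,6-bisphosphate, the activator of phosphofructokinase, 3 rose and none fell. Pfkfb3, the strongest kinase of this family, was at 54.1 and 55.7 CPM in OPC anti-miR-ctl and at 339 and 318 in OL miR-ctl, a rise of 2.58. Of 11 genes of glucose and lactate transport 6 rose and 2 fell, among them the lactate transporter Slc16a1 (1.84) and the glucose transporters Slc2a1 (0.71) and Slc2a3 (-1.07). Of 13 genes of pyruvate entry into mitochondria 9 rose and 1 fell, with Pdhx at 2.39, the carrier Mpc1 at 1.62 and the kinases Pdk2 at 2.52 and Pdk3 at -1.12. Of 12 genes of the glycerol, serine and glycogen branches 6 rose and 1 fell, with Gpd1 at 2.41 and Pygl at -2.35. Of 19 hypoxia factors and targets 11 rose and 3 fell, with Epas1 at 3.13 and Hif1a at 0.57.

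The miR-145 mimic was tested in OLs against the scrambled mimic. All 10 genes had a positive log2 fold change. It was 0.91 for Pfkm (SE 0.26), 0.81 for Ldhb (SE 0.22), 0.64 for Pkm (SE 0.18), 0.58 for Hk2 (SE 0.21), 0.46 for Pfkp (SE 0.20), 0.42 for Pgk1 (SE 0.12), 0.41 for Hk1 (SE 0.19) and 0.40 for Gpi (SE 0.18). Pfkl (0.09, SE 0.16) and Ldha (0.07, SE 0.17) were smaller than their errors. None of the 10 passed in edgeR, and neither did any of the 15461 genes tested (0%), although 5 of the 10 and 2067 of all genes had an unadjusted p under 0.05. By DESeq2, 649 genes and 3 of the 10 passed, namely Ldhb (adjusted p = 0.0196), Pfkm (adjusted p = 0.0233) and Pkm (adjusted p = 0.0411). With replicate number added to the fit as a block, more genes passed, among the 10 and over all genes. Both counts are given together with the settings below. Same-number deviations correlated at 0.23 here, but the labels do not say that replicates of the same number were made together. Both OL miR-145 libraries were above both OL miR-ctl libraries for 8 of the 10 genes, all but Pfkl and Ldha, where the groups did not overlap for 47.3% of all genes tested and 22.9% were higher in miR-145. The median log2 fold change was 0.44 over the 10 genes and -0.01 over all genes tested. Without replicate 1 of OL miR-145 the values were 0.50 for Pfkm, 0.48 for Ldhb, 0.42 for Pkm, 0.23 for Pfkp, 0.22 for Hk1 and 0.19 for Gpi, and without replicate 2 of that group Hk2 was at 0.29. Ldha turned to -0.08 without replicate 1 of OL miR-145 and to -0.09 without replicate 2 of OL miR-ctl, and Pfkl turned to -0.11 without the latter. The summed astrocyte list was at 12018 and 8250.4 CPM in OL miR-145 against 5820 and 4982 in OL miR-ctl, with Gfap the most abundant. The summed OL and microglia lists overlapped between the groups. Of the OL list, Cnp (2498 and 3087 against 3180 and 4041), Myrf (405 and 569 against 575 and 678) and Enpp6 (97.8 and 151 against 179 and 261) were lower. Mog and Mobp had higher group means in OL miR-145 but overlapped. Cx3cr1 of the microglia list was higher (12.4 and 24.8 against 4.95 and 5.01). Trem2 (41.4 to 83.2 against 27.3 to 34.4), Tyrobp (37.3 to 61.9 against 25.4 to 34.8) and P2ry12 (2.80 to 6.59 against 2.29 to 2.55) were higher too. The other genes of that list overlapped. The part of these markers in the differences was not tested.

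The steps that the 10 genes leave out were set beside them in this comparison. Eno1, an enolase, was at 1558 and 1049.8 CPM in OL miR-145 against 915 and 778 in OL miR-ctl. Aldoa, an aldolase, was at 787 and 605 against 548 and 520.2, and Pgam1, a phosphoglycerate mutase, at 510.4 and 441 against 361 and 393. These 3 and both gene IDs of Tpi1 (log2 fold changes of 0.45 and 0.29) did not overlap between the groups, and none passed. Of the 14 gene IDs of other glycolysis genes 6 were higher and 2 lower in both miR-145 libraries, with a median log2 fold change of 0.24, where 3539 were higher and 3770 lower of all 15461 genes tested. The corresponding counts were 2 and 1 of 5 for fructose bisphosphate control, 6 and 0 of 11 for transport, 6 and 2 of 13 for pyruvate entry, 5 and 2 of 12 for the glycerol, serine and glycogen branches, and 3 and 6 of 18 for hypoxia factors and targets.

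The miR-145+miR-219 libraries were set against the same OL miR-ctl libraries, and then against OL miR-145, so these 3 comparisons share libraries and their values are given side by side only. Against OL miR-ctl, none of the 10 genes and none of the 15436 genes tested passed in edgeR (0%), with 1 of the 10 (Hk2) and 956 of all genes at an unadjusted p under 0.05. By DESeq2, 106 genes and 0 of the 10 passed. The log2 fold change was 0.53 for Pfkm (SE 0.30), 0.52 for Hk2 (SE 0.15), 0.49 for Ldhb (SE 0.25), 0.33 for Pkm, 0.28 for Hk1, 0.25 for Pgk1, 0.20 for Gpi and 0.18 for Pfkp. It was -0.04 for Pfkl and -0.15 for Ldha. The groups did not overlap for 3 of the 10 genes, Hk2, Ldhb and Pgk1, all higher, where this held for 36.7% of all genes tested in either direction. The summed astrocyte list was at 9959 and 5914 CPM in OL miR-145+miR-219 against 5820 and 4982 in OL miR-ctl, with Gfap the most abundant, and its part in these differences was not tested. The median was 0.27 over the 10 genes and 0.00 over all genes tested. Without replicate 1 of OL miR-145+miR-219 the value of Hk1 was -0.04 and that of Pfkp -0.17, and Pfkm was at 0.05, Ldhb at 0.09, Pkm at 0.07, Gpi at 0.01 and Pgk1 at 0.13. Pfkl was 0.06 and Ldha 0.07 without replicate 2 of OL miR-145+miR-219, and they were 0.19 and 0.02 without replicate 1 of OL miR-ctl.

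Against OL miR-145, all 10 genes had a negative log2 fold change, from -0.39 for Pfkm (SE 0.37) and -0.33 for Ldhb (SE 0.32) to -0.14 for Hk1, -0.13 for Pfkl and -0.07 for Hk2. None of the 10 and none of the 15501 genes tested passed in edgeR (0%), with 0 of the 10 and 228 of all genes at an unadjusted p under 0.05, and by DESeq2 9 genes and 0 of the 10 passed. With replicate number as a block some genes passed, and the counts among the 10 and over all genes are given together with the settings below. The groups overlapped for all 10 genes, where 24.8% of all genes tested did not overlap. The median was -0.22 over the 10 genes and -0.00 over all genes tested. The sign rested on single libraries for 4 genes. Hk1 was 0.13 without replicate 2 of OL miR-145+miR-219 and 0.05 without replicate 1 of OL miR-145, and Hk2 was 0.05 without replicate 1 of OL miR-145+miR-219 and 0.24 without replicate 2 of OL miR-145. Pfkm was 0.02 without replicate 1 of OL miR-145, where Gpi and Ldhb came to -0.00, and Pfkp was 0.01 without replicate 2 of OL miR-145+miR-219. Of the steps between the 10 genes, Eno1, Aldoa, Pgam1 and the 2 gene IDs of Tpi1 were at 0.28, 0.16, 0.22, 0.32 and 0.19 against OL miR-ctl. They were at -0.36, -0.23, -0.13, -0.14 and -0.11 in the same order against OL miR-145. No gene of the neighbouring pathway lists passed in edgeR in any of the 3 OL comparisons, where edgeR called no gene at all. By DESeq2, some of them passed for miR-145 against miR-ctl, beside the DESeq2 count over all genes given above. Pdk1 (0.97), Phgdh (0.93), Gpd2 (0.80), Epas1 (0.74), Psat1 (0.57), Slc16a1 (0.53) and Pfkfb3 (0.46) were higher. Pdhx (-0.61) and Gpd1l (-0.55) were lower.

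The comparison of OPC anti-miR-145 with OPC anti-miR-ctl asks what the inhibitor of miR-145-5p did in OPCs. Pfkl rose by 0.86 on the log2 scale (SE 0.11, edgeR adjusted p = 0.00137) and Pfkp by 0.46 (SE 0.08, adjusted p = 0.00626), both of them phosphofructokinase subunits. The third subunit gene, Pfkm, had a log2 fold change of -0.19 (SE 0.08, edgeR adjusted p = 0.109) and did not pass. By edgeR, Ldha (0.30, adjusted p = 0.0683), Gpi (0.24, adjusted p = 0.11) and Ldhb (0.16, adjusted p = 0.204) did not pass either, nor did Pgk1 (0.11), Pkm (0.10), Hk2 (0.05) and Hk1 (0.01). Hk1 was level at any setting, since its value also took the other sign, at -0.01 with no filter on low counts and -0.02 with a filter of 20 counts. So 2 of the 10 genes passed, where 28.1% of the 15496 genes tested did (1874 higher and 2474 lower). The groups did not overlap for 8 of the 10 genes, with 6 higher and 2 lower (Pfkm and Hk1), where this held for 67.8% of all genes tested. The median was 0.13 over the 10 genes and 0.00 over all genes tested.

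Single libraries moved these calls. Without replicate 1 or without replicate 2 of OPC anti-miR-ctl, Pfkp no longer passed (0.41 and 0.47) and 1 of the 10 genes, Pfkl, did, while the number of genes passing in all was 2424 and 2530 in place of 4348. Without replicate 2 of OPC anti-miR-145, 7130 genes and 6 of the 10 passed, the added ones being Gpi (0.33), Pgk1 (0.19), Ldha (0.41) and Ldhb (0.21). Without replicate 1 of OPC anti-miR-145 those genes were at 0.13, 0.02, 0.18 and 0.10 in the same order, Pfkm passed at -0.20 and Hk2 was at -0.02. Hk1 was between -0.02 and -0.01 without replicate 1 of OPC anti-miR-145 or without either library of OPC anti-miR-ctl. Pkm ranged from 0.03 to 0.17 across the fits without 1 library. In a single fit of all 10 libraries Pfkp did not pass (0.47), and Ldha passed in DESeq2 (0.30, adjusted p = 0.0324). The 6 proliferation genes summed to 404 and 491 CPM in OPC anti-miR-145 against 1267 and 1352 in OPC anti-miR-ctl, with Top2a the most abundant, and the astrocyte list to 218 and 273 against 443 and 413, a sum carried by Slc1a3. Gfap of that list went the other way, at 40.7 and 51.1 CPM against 8.23 and 7.81. The 5 matched neuron genes summed to 134 and 125 CPM against 77.4 and 75.4, with Tubb3 the most abundant in anti-miR-145 and Syt1 in anti-miR-ctl. The microglia list summed to 1105 and 875 CPM against 1009 and 939, but 6 of its 10 genes were higher and 4 lower in anti-miR-145 without overlap, such as C1qb (221 and 181 against 79.7 and 80.8) and Aif1 (98.3 and 61.4 against 207 and 219). The OL list summed to 1111 and 1103 CPM against 1256 and 1322. Its genes went both ways, such as Myrf (33.6 and 34.6 against 87.8 and 75.2) and Cldn11 (16.8 and 17.1 against 7.32 and 8.06). The endothelial list was at 1.56 and 1.52 CPM against 11.5 and 10.7, and the fibroblast or mural list at 2.16 and 1.48 against 1.15 and 1.23. Flt1 carried the former difference (0.99 and 0.75 against 10.7 and 10.1) and Col1a1 the latter (1.79 and 1.25 against 0.96 and 0.85). The part of these markers in the result was not tested.

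Neighbouring pathways in OPCs were counted beside 1874 rises and 2474 falls among all 15496 genes tested (28.1% in all). The kinase Pfkfb3 was at 96.7 and 96.6 CPM in anti-miR-145 against 54.1 and 55.7 in anti-miR-ctl and rose by 0.83, and it was the 1 gene of 5 in its list to pass. Of the 14 gene IDs of other glycolysis genes 2 rose, Pgam1 by 0.42 and Eno1 by 0.37, and 2 fell, Hk3 (-1.36) and Aldoc (-0.29). Aldoa (0.21) and both gene IDs of Tpi1 (0.24 and 0.21) did not pass. Of 9 transport genes tested none rose and 2 fell, the glucose transporter Slc2a1 (-0.84) and Emb, a partner of lactate transporters (-0.63). Of 12 genes of pyruvate entry 1 rose, Pdk2 (0.37), and 1 fell, Pdk3 (-0.54). Of 12 genes of the glycerol, serine and glycogen branches Gys1 rose (0.38), and Pygl (-1.26), Pygb (-0.57) and Ugp2 (-0.42) fell. Of 19 hypoxia factors and targets 6 rose, with Adm at 1.96 and Hif1a at 0.40, and 3 fell, Ero1a (-0.92), Ndrg1 (-0.92) and Epas1 (-0.69).

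Genes with the most similar profile were sought for Hk2, Ldha and Ldhb among 9260 genes, as those with the smallest root mean square difference in centred log2 CPM over the 10 libraries. For Hk2 these were Pnp (0.116), Sall1 (0.126) and Gpx1 (0.159). Pnp, a purine nucleoside phosphorylase, was at 58.9 and 72.5 CPM in OL miR-ctl, its 2 lowest libraries, and at 92.9 and 111 in OL miR-145. For Ldha the nearest were Maged1 (0.0883) and RGD1563365 (0.0887). Maged1, a gene of the MAGE family, was at 569 and 399 CPM in OL miR-ctl against 773 and 781 in OPC anti-miR-ctl, and was highest in OPC anti-miR-145 at 955 and 879. For Ldhb they were Eci1 (0.0893), Osgep (0.117) and St6galnac6 (0.123). Eci1, a mitochondrial enzyme of fatty acid oxidation, was at 25.4 and 23.6 CPM in OL miR-ctl, 44.7 and 33.1 in OL miR-145, and 17.3 in both libraries of OPC anti-miR-ctl.

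Promoter sequence is shown for the A and B subunits of lactate dehydrogenase, whose levels ran in opposite directions between OL and OPC libraries. Promoters of RefSeq (GRCr8), from 250 bases before to 50 after each gene's start, were matched for 9 of the 10 genes, and Pgk1 is named only. The letters ACGTG or GCGTG, known as the core that hypoxia-inducible factors bind, were searched on both strands, and occur in 41.6% of all 33469 promoters. They were in promoters of 7 of the 9 genes, all but Hk2 and Pkm, and in 1 of the 2 promoters of Hk1. The Ldha promoter held 6 matches, counting overlapping ones, and it alone among these promoters held CACGTG, which contains ACGTG on both strands and is in 6.42% of all promoters. A match describes the letters in this window and is no evidence of binding. The 30 bases around the densest matches of Ldha (chr1:106507997-106508026, plus strand) and around the single match of Ldhb (chr4:177177495-177177524, minus strand) follow, with matches in capitals.
Ldha: ccagcctaCACGTGggttcccgCACGTccg
Ldhb: gggggagagcagcGCGTGcacactccagcc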

How the data were processed

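The authors deposited a table of estimated counts for 23487 genes in 10 libraries, made with Salmon 0.12.0 against GENCODE Rnor6.0 according to the submitters' processing notes, from TruSeq stranded mRNA libraries read on an Illumina NextSeq. These values were rounded to whole numbers, which left 4036 genes at 0 counts in every library. Genes that reached 5 counts in 2 or more of the 4 libraries of a comparison were kept. Each comparison was fitted in edgeR 4.0.16 under R 4.3.3 with TMM factors, estimateDisp, glmQLFit and glmQLFTest. P-values were adjusted by Benjamini and Hochberg over all genes tested, and a gene passed under 0.05. The standard error is the absolute log2 fold change divided by the square root of the F statistic. The code was tested on simulated data with known changes. Tables and figures were made with Python 3.11.15, numpy 2.4.6, pandas 2.3.3, scipy 1.17.1 and matplotlib 3.10.9.

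Settings varied were DESeq2 1.42.0 in place of edgeR, DESeq2 size factors in edgeR, no filter, a filter of 20 counts in 2 libraries, all 10 libraries in a single fit, a replicate block, counts plus 5 in the ratios, only control libraries in the ratios, and each library left out in turn. Leaving out 1 of 4 libraries leaves a lone library whose spread is taken to be that of the other pair.

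The deposited DESeq2 comparison columns, which hold mean signal, log2 fold change with its error, Wald statistic and p-values, were not used except for gene symbols. Symbols covered 14561 of the 23487 gene IDs, and 266 symbols stood on more than 1 ID, Tpi1 among them, so the assignment of Tpi1 is uncertain. The 10 genes and the gene lists were chosen with earlier results of these data known. Beyond the 10, genes were named by rule: up to 8 with the smallest p from each pathway list in each comparison, Aldoa, Tpi1, Pgam1 and Eno1 wherever tested, and up to 3 genes most like Hk2, Ldha and Ldhb among those with a mean of at least 10 CPM, on centred log2 CPM with a prior count of 2. A list of the pentose phosphate pathway was also counted and is not described. Genes not matched by symbol included Hkdc1, Gapdh, Pgk2, Eno2, Ldhc, Fbp1, Fbp2 and Pgd in the pathway lists, and Lhfpl3, Snap25, Col1a2, Lum, Rgs5, Cldn5 and Pecam1 in the marker lists. Gene counts join all transcripts of a gene, and reads of near-identical copies may be assigned to either.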

Additional observations from a re-analysis of the deposited data

How the results depend on the processing

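Over the settings other than leaving out libraries, 279 pairs of a result and a setting kept call and direction, 13 were stronger, 5 weaker and 3 reversed. Over the fits without 1 library, 159 kept them, 8 were stronger, 12 weaker and 21 reversed. For miR-145 against miR-ctl, edgeR called 0 genes, DESeq2 649 (3 of the 10), a single fit of all libraries 79, and a replicate block 2272 (8 of the 10). For miR-145+miR-219 against miR-ctl, DESeq2 called 106, no filter 1, and the block 132 (0 of the 10). Against miR-145 they were 9 by DESeq2 and 184 by the block (1 of the 10). For anti-miR-145 the single fit called 2657 (1 of the 10). For OL against OPC the single fit called 8795 (4 of the 10, without Hk2 and Ldhb) and the block 8534 (5 of the 10, without Hk2). Labels do not say that replicates of the same number were made together, and same-number deviations correlated at 0.23, 0.23 and 0.42 in the 3 OL comparisons, at -0.07 for anti-miR-145 and at 0.03 for OL against OPC. Reversed were Hk1 for anti-miR-145 (-0.00885 with no filter, -0.0209 with a filter of 20 counts) and Pgk1 for OL against OPC (0.00924 in the single fit). In control libraries alone the ratios differed by -1.04 (Ldha to Ldhb), -1.41 (Pfkp to Pfkm) and -0.60 (Pfkl to Pfkm).

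Without 1 library, calls for anti-miR-145 ran from 2424 to 7130 genes (1 to 6 of the 10) and for OL against OPC from 5016 to 10591 (1 to 9 of the 10). The 3 OL comparisons stayed at 0. Log2 fold changes crossed 0 for miR-145 in Pfkl (-0.11 to 0.31) and Ldha (-0.0868 to 0.24). They did so for miR-145+miR-219 against miR-ctl in Hk1 (-0.0351 to 0.54), Pfkl (-0.23 to 0.19), Pfkp (-0.17 to 0.46) and Ldha (-0.42 to 0.0655). Against miR-145 they did so in Hk1 (-0.46 to 0.13), Hk2 (-0.32 to 0.24), Pfkm (-0.87 to 0.0156) and Pfkp (-0.63 to 0.00895). For anti-miR-145 these were Hk1 (-0.0166 to 0.0256) and Hk2 (-0.0167 to 0.12), and for OL against OPC Pgk1 (-0.0626 to 0.0508). The Hk2 to Hk1 ratio differed by 0.31 to 0.504 and passed only at the upper end, without replicate 1 of OL miR-145. The cause was not tested.

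With 2 libraries in each group, calls rest on few values, and the OL replicates differ from each other more than the OPC replicates do. Whether genes passed between the OL groups depended on the fit, since edgeR with the settings used in the report called none and other settings called some. OL and OPC cultures differ in medium, time and oligonucleotide as well as cell type. Transcript levels say nothing on enzyme activity, flux or lactate release, and bulk samples hold more than 1 cell type.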
